A study of Mus musculus with 6 samples.

Results

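The immunoglobulin heavy chain constant genes decide which antibody class a B cell makes, and all 8 that were sought by name (Ighm, Ighd, Ighg3, Ighg1, Ighg2b, Ighg2c, Ighe and Igha) were present among the 19680 genes of the deposited table. They were measured by RNA sequencing in germinal center B cells, taken from mouse spleen by flow cytometry as B220+ CD38- FAS+ cells. The 3 cKO libraries came from Senp1 flox/flox Cγ1-Cre mice, and the 3 WT libraries from Senp1 flox/flox mice without Cre, so every mouse carried the floxed Senp1 alleles. All were C57BL/6 mice aged 6 to 8 weeks that had received 100 µg of NP-CGG, a hapten coupled to a protein carrier, by intraperitoneal injection 14 days before the spleens were taken. Cγ1-Cre is a Cre recombinase gene placed in the Ighg1 locus, which is switched on when γ1 transcription starts, and so the driver itself sits in one of the genes described here and is carried by the cKO mice only. No label ties a library to 1 mouse, and p-values then reflect only how far these libraries spread, which may be technical. The study asks what the loss of Senp1, a protease that removes the SUMO modifier from proteins, changes in these cells.

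Each heavy chain transcript joins a variable region to a constant gene. A naive B cell makes Ighm and, by alternative splicing of the same long transcript, Ighd. During class switch recombination the DNA between Ighm and a downstream constant gene is deleted, and the same variable region is then joined to a γ, ε or α gene. Switching is preceded by noncoding germline transcripts that start upstream of the chosen constant gene and include its exons, so reads on Ighg1 or Ighe can come from cells that have switched and from cells that have not. In mice, interleukin 4 favors Ighg1 and Ighe, interferon γ favors Ighg2c, and TGF-β favors Ighg2b and Igha. The counts do not separate secreted from membrane forms. In a bulk sample, fewer cells of a class and less RNA per cell cannot be told apart.

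The 8 genes lie on chromosome 12 of GRCm38 (mm10), on the minus strand, at chr12:113254830-113422730, in the order given above from Ighm to Igha. Ighd starts 6.41 kb downstream of the start of Ighm, Ighg3 61.5 kb, Ighg1 92.2 kb, Ighe 149 kb and Igha 162 kb. The γ genes are close copies of each other, which bears on how far their reads can be told apart, so the first 120 bases of the first constant exon (CH1) are shown for Ighe and the 4 γ genes, read 5′ to 3′ from GENCODE M21 transcripts. Capitals mark bases that differ from Ighg1 at the same position, and Ighe, which was not aligned, has none.
Ighe: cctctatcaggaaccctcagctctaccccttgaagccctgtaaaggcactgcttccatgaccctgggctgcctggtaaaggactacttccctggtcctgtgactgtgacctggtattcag
Ighg1: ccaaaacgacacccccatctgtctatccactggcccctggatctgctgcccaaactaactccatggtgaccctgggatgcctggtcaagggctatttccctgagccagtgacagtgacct
Ighg2b: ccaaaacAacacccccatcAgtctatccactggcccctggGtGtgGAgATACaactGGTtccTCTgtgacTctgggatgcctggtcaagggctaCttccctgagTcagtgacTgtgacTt
Ighg2c: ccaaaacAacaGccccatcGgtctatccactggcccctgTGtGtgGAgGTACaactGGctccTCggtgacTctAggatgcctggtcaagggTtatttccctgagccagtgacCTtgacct
Ighg3: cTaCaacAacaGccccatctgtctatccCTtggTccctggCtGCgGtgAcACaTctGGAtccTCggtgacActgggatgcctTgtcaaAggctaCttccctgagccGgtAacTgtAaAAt
These stretches start at the first base of each gene, which on the minus strand is its highest coordinate, and span chr12:113273129-113273248 for Ighe, chr12:113330404-113330523 for Ighg1, chr12:113307814-113307933 for Ighg2b, chr12:113288813-113288932 for Ighg2c and chr12:113361113-113361232 for Ighg3. Over the 291 bases of CH1, Ighg1 was 88.3% identical to Ighg2b, 88.0% to Ighg2c and 79.0% to Ighg3, and Ighg2b was 87.6% identical to Ighg2c. Of all 50-base words in the annotated transcripts of each gene, 5.49% in Ighg2c, 4.15% in Ighg2b, 1.58% in Ighg3 and 0.393% in Ighg1 also occurred in another γ gene. Ighm, Ighd, Ighe and Igha shared 0 such words with any other annotated transcript, and at 100 bases 0 words were shared by any of the 8 genes. The sources used here do not give read length, strand setting or the handling of multiply matching reads. Low values of Ighg2b, Ighg2c and Ighg3 are therefore uncertain, while Ighe shares no word of that length.

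The libraries held 3019152 to 9657005 gene-assigned reads in cKO and 5160902 to 10339054 in WT, and the 8 genes took 0.785% to 1.48% of them in cKO and 0.807% to 1.32% in WT. Values below are normalized counts (reads divided by the authors' size factor for the library) with n = 3 libraries per group and SD as the error. Senp1 checked the labels: it measured 373, 425 and 398 normalized counts in cKO replicates 1 to 3 and 915, 868 and 891 in WT replicates 1 to 3. The cKO level was 0.447 of that in WT. Its unadjusted limma p of 7.56e-06 was the smallest of all genes tested, but the adjusted p was 0.111. Limma at an adjusted p under 0.05 thus did not call even the targeted gene, which limits what a gene not called by it can mean. On the leading principal component (33.2% of the variance), cKO replicates 1 to 3 lay at -49.1, 56.2 and 41.2. WT replicates 1 to 3 lay at -54.4, -10.1 and 16.3 on it. Replicate 1 was thus at the low end in both genotypes, and cKO replicates 2 and 3 at the high end. On the second component cKO replicates 2 and 3 were furthest apart, at 64.5 and -67. Replicate 1 was the deepest library of each genotype. The shallowest of all were cKO replicates 2 and 3, at 3019152 and 3082897 reads. The mitochondrial share of reads was 3.66%, 12.3% and 19.1% in cKO replicates 1 to 3 and 2.71%, 7.92% and 9.83% in WT replicates 1 to 3, lowest in replicate 1 of each genotype and higher in cKO at each number. Its part in the differences of Ighe, Ighm and the ratios below was not tested. cKO replicate 2 held the most T cell transcripts, and a sum of 7 T cell markers came to 1031 normalized counts there and 34.7 to 197 in the other libraries.

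Ighg1 was the leading class in every library, and Ighe the rarest or next to rarest. On a scale that allows genes to be compared, normalized counts per kilobase of exon, Ighg1 averaged 13956 ± 1092 in cKO and 13999 ± 1561 in WT. Igha averaged 5054 ± 5520 in cKO and 3552 ± 1841 in WT, and Ighm 4889 ± 1882 in cKO and 3402 ± 2505 in WT. Ighg2b (1058 ± 946 in cKO and 984 ± 644 in WT) and Ighg2c (389 ± 395 in cKO and 1558 ± 1780 in WT) followed, and Ighd, Ighg3 and Ighe lay lower. Below Ighg1, most neighbours in this order overlapped in their libraries, Igha and Ighm in both genotypes. The libraries of Ighm and Ighg2b did not overlap in either genotype, and those of Ighg3 and Ighe did not in cKO. As a share of the 8 genes per kilobase, Ighg1 made up 66.2%, 36.5% and 71.1% in cKO replicates 1 to 3 and 51.6%, 70.1% and 59.5% in WT replicates 1 to 3. cKO replicate 2 was the library in which Ighg1 took the smallest share, and Igha took 32.4% there.

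**Figure D1:**
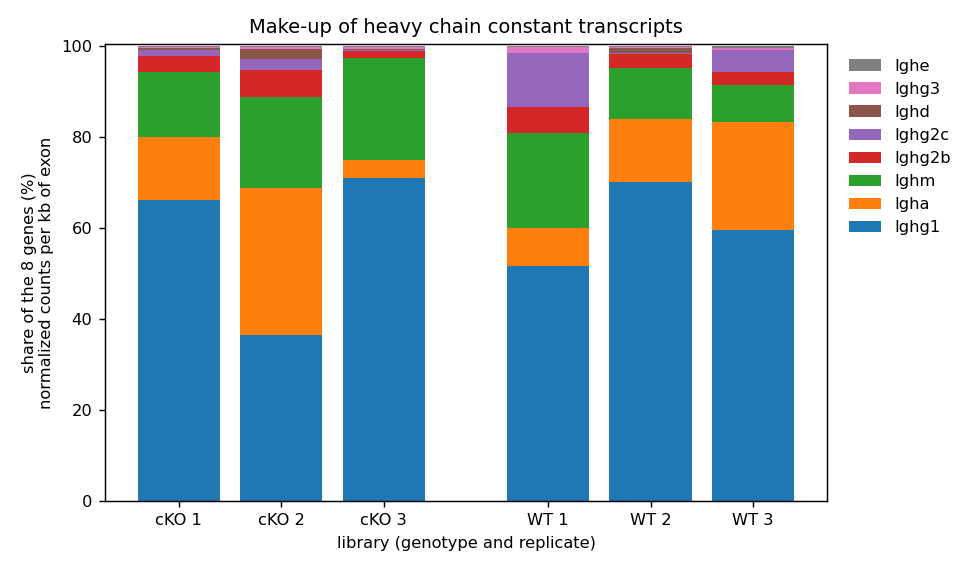
Share (percent) of each of the 8 constant genes in their summed normalized counts per kilobase of exon, 1 bar for each library, cKO at the left and WT at the right. Ighg1 fills 36.5% to 71.1% of the cKO bars and 51.6% to 70.1% of the WT bars, and Igha takes 3.85% to 32.4% of the cKO bars and 8.39% to 23.8% of the WT bars.

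Ighm, the class of cells that have not switched, measured 5995, 13024 and 8642 normalized counts in cKO replicates 1 to 3 and 11871, 3737 and 3641 in WT replicates 1 to 3. The groups overlapped because WT replicate 1 was as high as the cKO libraries. The log2 fold change was 0.69 ± 0.46 (SE; 95% interval -0.36 to 1.74), with an unadjusted limma p of 0.172 and an adjusted p of 0.928 over 14678 genes. It was positive in all 20 alternative fits, though limma with a replicate block or a term for replicate 1 keeps the estimate by design. The value was 0.40 to 0.42 without WT replicate 2, WT replicate 3 or cKO replicate 2, and 1.25 without WT replicate 1. Here and below, differences within a replicate number set same-numbered libraries against each other, and these were not taken as pairs. For Ighm the difference was -0.99 within replicate 1, where WT replicate 1 was the highest WT library. It was 1.52 within replicates 2 and 3. In replicates 2 and 3 alone, a fit that leaves out WT replicate 1, the unadjusted limma p was 0.000144 and the adjusted p 0.235. Ighm was thus not called there either.

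Ighd, made with Ighm by mature naive B cells, measured 148, 1418 and 123 normalized counts in cKO replicates 1 to 3 and 94.5, 374 and 62.4 in WT replicates 1 to 3. cKO replicate 2 lifted the cKO mean (563 ± 741) above that of WT (177 ± 171), and replicate 2 was the highest library within each genotype. Within replicate numbers 1 to 3 the log2 difference was 0.64, 1.92 and 0.96, each higher in cKO. With a replicate block the unadjusted limma p was 0.0011 and the adjusted p 0.257. The log2 fold change was 1.18 ± 0.95 (SE), with a limma adjusted p of 0.930, and it came to 0.047 without cKO replicate 2, 0.65 without WT replicate 3 and 1.93 without WT replicate 2. A further 6 naive or memory B markers, such as the homing receptor Ccr7, were together also highest in cKO replicate 2. Their sum was 1918, 4973 and 3389 normalized counts in cKO replicates 1 to 3 and 1297, 2009 and 3102 in WT replicates 1 to 3. It was mostly Fcer2a, at 1495, 2856 and 2443 in cKO replicates 1 to 3 and 988, 1572 and 2062 in WT replicates 1 to 3. The part of these markers in the Ighd and Ighm values was not tested.

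Ighg1, the main class after immunization with protein antigens and the gene whose locus holds the Cre in cKO mice, was the most even of the 8. It measured 38111, 32927 and 37485 normalized counts in cKO replicates 1 to 3 and 40063, 32016 and 36779 in WT replicates 1 to 3. The highest library was 1.25 times the lowest, and within each genotype replicate 2 was the lowest. The log2 fold change was -0.0014 ± 0.204 (SE), with a 95% interval from -0.47 to 0.46 and a limma adjusted p of 0.999. Its sign turned without WT replicate 1 (0.073), WT replicate 3 (0.011) or cKO replicate 2 (0.065), all within that interval. Reads from the allele that carries Cre and from an unmodified allele fall on the same exons. An effect of the inserted Cre and of the loss of Senp1 on Ighg1 therefore cannot be told apart. Only the cKO mice carry Cre, so the same limit holds for the other genes, Ighe and its ratio to Ighg1 included.

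Ighg2c, the class favored by interferon γ in C57BL/6 mice, was the least even: 385, 1093 and 69.4 normalized counts in cKO replicates 1 to 3 and 4657, 39.4 and 1499 in WT replicates 1 to 3. The highest library was 118 times the lowest, and both came from WT. The log2 fold change was -1.08 ± 1.62 (SE; limma adjusted p = 0.961), and it was -3.59 within replicate 1 and 0.17 within replicates 2 and 3. Without WT replicate 2 it was -3.09 (unadjusted p = 0.0171, adjusted p = 0.999 by limma). Without cKO replicate 2 it was -1.99, without cKO replicate 3 -0.013, and without WT replicate 1 it turned to 0.33.

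Ighg2b, favored by TGF-β, measured 2080, 5658 and 760 normalized counts in cKO replicates 1 to 3 and 4609, 1416 and 1880 in WT replicates 1 to 3. Ighg3, a class made mainly against carbohydrate antigens, measured 177, 467 and 219 in cKO replicates 1 to 3 and 904, 113 and 276 in WT replicates 1 to 3. For both genes the groups overlapped, WT replicate 1 was the highest WT library and cKO replicate 2 the highest cKO library. The limma log2 fold changes were -0.15 ± 0.68 (SE; adjusted p = 0.987) for Ighg2b and -0.21 ± 0.67 (SE; adjusted p = 0.982) for Ighg3. Without WT replicate 1 the values were 0.35 for Ighg2b and 0.57 for Ighg3. The sign of Ighg2b also turned without cKO replicate 3 (0.57), and that of Ighg3 without cKO replicate 1 (0.069). Within a library, Ighg2b, Ighg2c and Ighg3 together came to 0.0693, 0.219 and 0.0280 of Ighg1 in cKO replicates 1 to 3 and 0.254, 0.0490 and 0.0994 in WT replicates 1 to 3.

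Igha, the class of mucosal antibodies, measured 8250, 30112 and 2090 normalized counts in cKO replicates 1 to 3 and 6710, 6572 and 15149 in WT replicates 1 to 3. The highest and the lowest library were both cKO, 14.4 times apart, while the WT libraries lay within 2.31 times of each other. The log2 fold change was -0.12 ± 0.82 (SE; limma adjusted p = 0.993), and it was -1.07 without cKO replicate 2, 0.85 without cKO replicate 3 and 0.28 without WT replicate 3. A sum of 8 plasma cell markers was 9634, 18134 and 8897 normalized counts in cKO replicates 1 to 3 and 11306, 10105 and 14574 in WT replicates 1 to 3. That sum was highest in the library with the most Igha in each genotype, but it was mostly Jchain, the gene of the J chain that links IgA and IgM units, at 5765, 13478 and 5836 in cKO replicates 1 to 3 and 7012, 6937 and 10944 in WT replicates 1 to 3. Xbp1, a transcription factor of secretory cells, was highest in cKO replicate 2 (1082) but in WT replicate 1 (1088). The part of plasma cells in the Igha values was not tested.

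**Figure D2:**
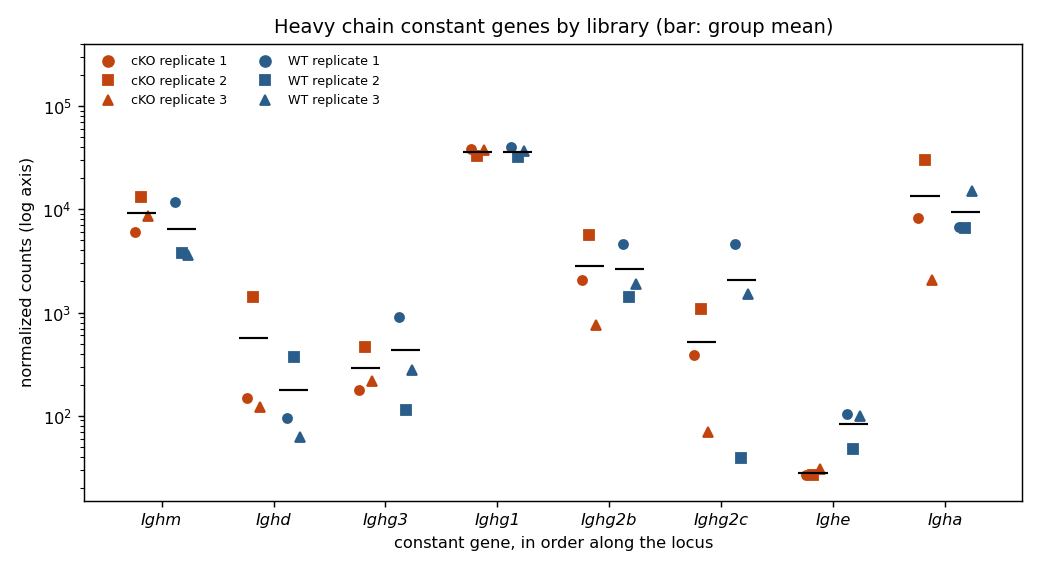
Normalized counts (log axis) of the 8 constant genes in each library, with cKO left of WT for every gene, 1 symbol for each replicate number and a bar at the group mean. Ighg1 lies within 1.25-fold over all 6 libraries, Ighg2c spans 118-fold, and Ighe is the gene whose cKO and WT libraries do not overlap.

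Ighe, which encodes the IgE heavy chain and is reached by switching from Ighm directly or by way of Ighg1, was lower in all 3 cKO libraries than in any of the 3 WT libraries. It measured 26.6, 26.6 and 30.6 normalized counts in cKO replicates 1 to 3 and 105, 47.9 and 99.1 in WT replicates 1 to 3. The cKO libraries lay within 1.15 times of each other, whereas WT replicate 2 was lower than the other WT libraries and stood nearest to cKO. The means were 27.9 ± 2.35 in cKO and 83.9 ± 31.3 in WT, and the log2 fold change was -1.48 ± 0.34 (SE; 95% interval -2.25 to -0.70), which is 2.78-fold lower in cKO. The unadjusted limma p was 0.00217, the 31st smallest of 14678, and the adjusted p was 0.915, so limma did not call Ighe. The difference was -1.94 within replicate 1 and -1.24 within replicates 2 and 3, and it stayed between -1.83 and -1.28 when any single library was left out.

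The Ighe values rest on few reads. There were 49, 14 and 15 reads in cKO replicates 1 to 3, with exact 95% Poisson intervals of 36.3 to 64.8, 7.65 to 23.5 and 8.40 to 24.7. WT replicates 1 to 3 held 207, 45 and 116 reads, with intervals of 180 to 237, 32.8 to 60.2 and 95.9 to 139. The intervals hold the counting error of reads alone, and not of molecules. On whole reads recovered from the normalized counts, edgeR gave a log2 fold change of -1.59 (adjusted p = 0.850) and DESeq2 one of -1.61 (adjusted p = 0.0607). The authors' deposited table lists the same -1.61 with an adjusted p of 0.0607, so its value is not separate support. With a term for replicate 1, a fit chosen after the data were seen, the DESeq2 adjusted p was 0.0304, so the call depends on the model. Over 20 alternatives the Ighe adjusted p ranged from 0.0304 to 0.979.

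**Figure D3:**
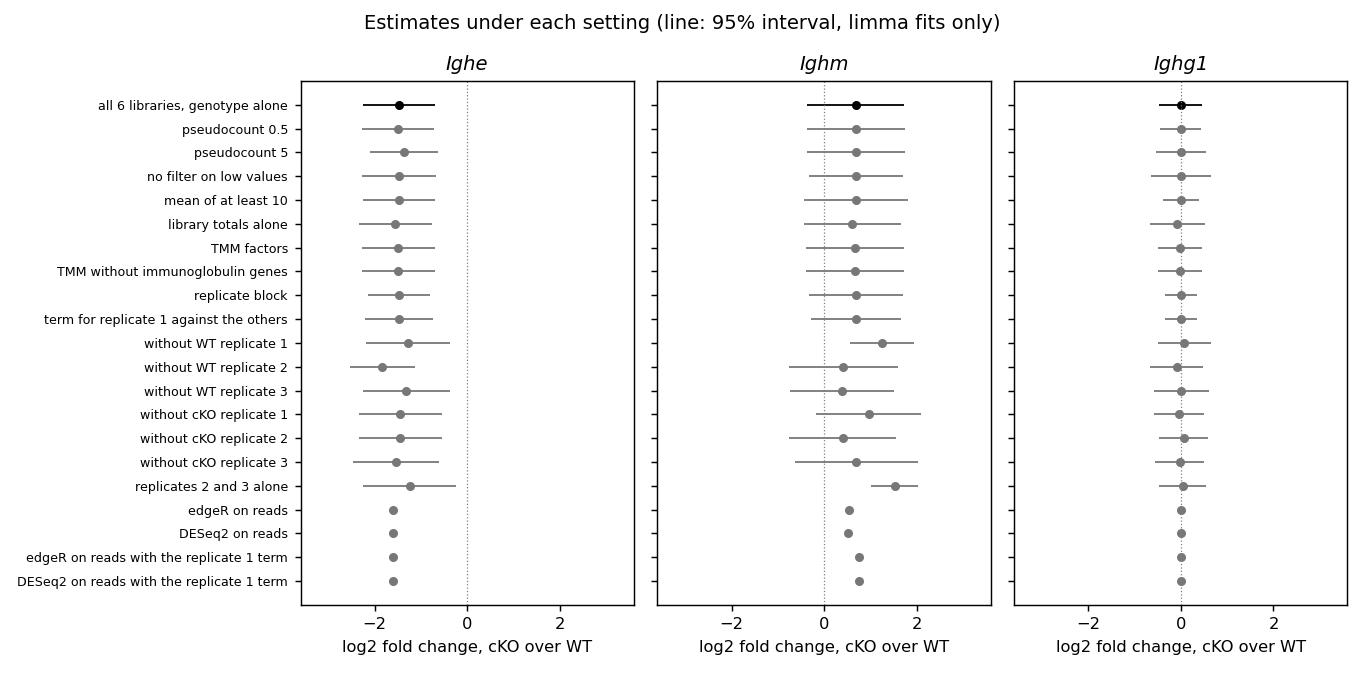
Log2 fold change, cKO over WT (x axis), of Ighe, Ighm and Ighg1 under each setting (rows), with 95% intervals for the limma fits and points alone for the count tests. Ighe stays between -1.83 and -1.24, Ighm between 0.40 and 1.52, and Ighg1 within 0.089 of 0.

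Set against Ighg1 in the same library, which removes any error in the scaling of libraries, Ighe was lower in every cKO library. Ighg1 varied only 1.25-fold over the libraries, so this ratio rests largely on the same Ighe reads and is not separate support. There were 0.697, 0.807 and 0.817 Ighe reads for every 1000 Ighg1 reads in cKO replicates 1 to 3, and 2.61, 1.5 and 2.69 in WT replicates 1 to 3. As a share of Ighe and Ighg1 reads together, Ighe was 0.0697%, 0.0806% and 0.0817% in cKO and 0.261%, 0.149% and 0.269% in WT. The exact binomial 95% intervals of these shares reached from 0.0441% to 0.135% over the cKO libraries and from 0.109% to 0.322% over the WT libraries. The intervals of cKO replicates 2 and 3 (each up to 0.135%) and of WT replicate 2 (from 0.109%) overlapped. Overlap of such intervals is no test of a difference, and these libraries were not tested against each other. The log2 ratio averaged -10.34 ± 0.13 in cKO and -8.83 ± 0.48 in WT, a difference of -1.51 or 2.84-fold (exact two-sided permutation p = 0.1, the smallest that 3 against 3 can give). It was -1.91 within replicate 1 and -1.31 within replicates 2 and 3. The cKO and WT libraries did not overlap for the ratio of Ighe to Ighm, which uses the same Ighe reads. That ratio was 0.00443, 0.00204 and 0.00355 in cKO replicates 1 to 3 and 0.00882, 0.0128 and 0.0272 in WT replicates 1 to 3. The libraries of the genotypes overlapped for the ratios of Ighe to Ighd, Ighg3, Ighg2b, Ighg2c and Igha.

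The balance of switched classes (γ, ε and α together) to unswitched classes (Ighm and Ighd) did not separate the genotypes. The ratio of switched to unswitched normalized counts was 7.98, 4.87 and 4.64 in cKO replicates 1 to 3 and 4.77, 9.78 and 15 in WT replicates 1 to 3. cKO replicate 1 was the highest of its group, WT replicate 1 the lowest of its group, and the groups overlapped. The ratio averaged 5.83 ± 1.87 in cKO and 9.86 ± 5.13 in WT, and the mean log2 ratio differed by -0.65. That difference had opposite signs within replicate 1 (0.74) and within replicates 2 and 3 (-1.35). It was -0.90 without cKO replicate 1, -0.55 without cKO replicate 2, -1.10 without WT replicate 1, -0.27 without WT replicate 3, and -1.04 when Ighg1 was not counted as switched. Per kilobase of exon the ratios were 5.82, 3.55 and 3.38 in cKO replicates 1 to 3 and 3.72, 7.09 and 11.1 in WT replicates 1 to 3.

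Ratios of single classes showed the same overlap. Ighg1 was 6.36, 2.53 and 4.34 times Ighm in cKO replicates 1 to 3 and 3.37, 8.57 and 10.1 times in WT replicates 1 to 3 (log2 difference -0.69, exact two-sided permutation p = 0.3). Without cKO replicate 2 that difference was -0.34, without WT replicate 3 it was -0.39 and without WT replicate 1 it was -1.18. Ighd was 0.0247, 0.109 and 0.0142 of Ighm in cKO replicates 1 to 3 and 0.00796, 0.1 and 0.0171 in WT replicates 1 to 3 (log2 difference 0.49, exact two-sided permutation p = 0.7). That difference was -0.35 without cKO replicate 2, -0.30 without WT replicate 1, 1.12 without cKO replicate 3 and 1.53 without WT replicate 2. Replicate 2 had the highest Ighd to Ighm ratio within each genotype.

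**Figure D4:**
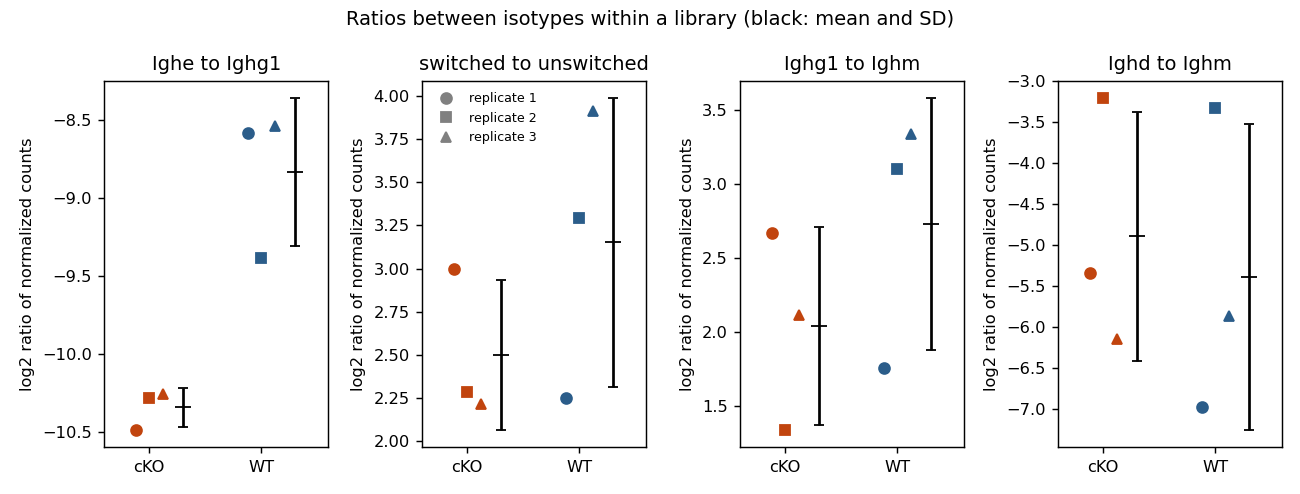
Log2 ratio of normalized counts between classes within each library, cKO left of WT in each panel, with the group mean and SD in black beside the points. The Ighe to Ighg1 ratio is -10.49 to -10.26 in cKO and -9.38 to -8.54 in WT, while the other 3 ratios overlap between the genotypes.

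Across the 8 genes, limma called 0 at an adjusted p under 0.05, where it called 0 of all 14678 genes (0%). At an unadjusted p under 0.05 there was 1 of 8, Ighe, beside 5.15% of all genes tested (756 by limma, 611 by edgeR and 559 by DESeq2). By direction that was 1 lower, beside 2.17% of all genes, and 0 higher, beside 2.98%. The genotypes did not overlap for 1 of 8, again Ighe, beside 11.6% of all genes in either direction, 5.28% lower and 6.28% higher. At this number of members such a count is near the background, so it is no result about the constant genes as a group. All 8 passed the filter of a mean of at least 1. DESeq2 on the recovered reads called 0 of 7, giving no p for Ighd, beside 0.197% of the genes it tested, and with the replicate 1 term it called 1 of 8 beside 0.634%. With that term edgeR called 0 of 8 beside 0.0358%, and limma 0 of 8 beside 0.0204%. By position, the genes nearest the variable region, Ighm and Ighd, had positive log2 fold changes and the other 6 had values below 0, with intervals that included 0 for all but Ighe. The signs of Ighg3, Ighg1, Ighg2b, Ighg2c and Igha turned when single libraries were left out.

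**Figure D5:**
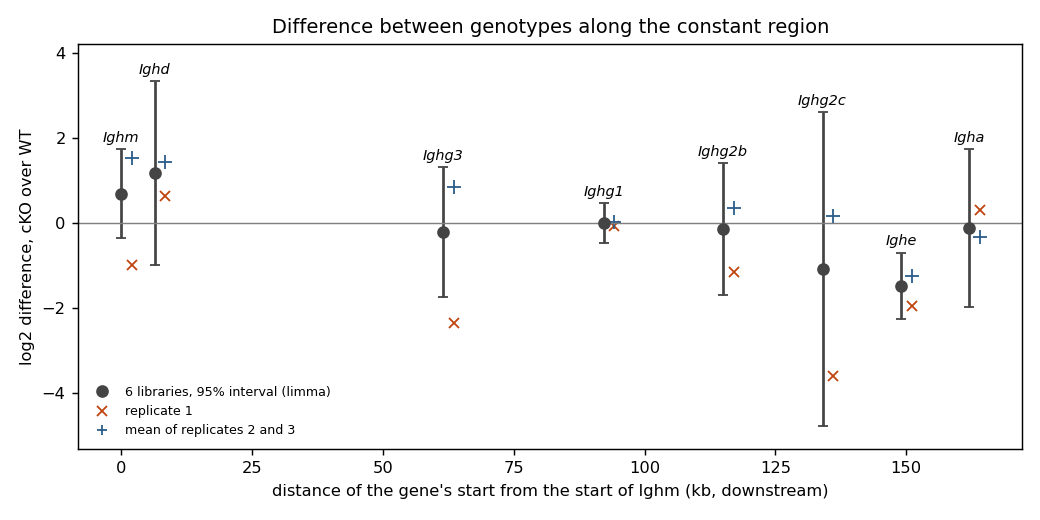
Log2 difference, cKO over WT (y axis), of each constant gene against the distance of its start from the start of Ighm in kilobases (x axis). Circles with bars are the limma estimate and 95% interval over 6 libraries, and crosses and plus signs, drawn 2 kb to the right, are the difference within replicate 1 and the mean difference of replicates 2 and 3; the last pair have opposite signs for Ighm, Ighg3, Ighg1, Ighg2b, Ighg2c and Igha.

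Genes that carry out or direct switching were read from 3 lists. In the class switch machinery, 34 of 37 listed genes were tested and limma called 0 higher and 0 lower. Their median log2 fold change was -0.099 beside -0.0019 over all genes tested, and 24 of 34 were below 0 beside 50.2% of all genes. Among them Atm, the kinase that senses DNA double-strand breaks, measured 554, 689 and 603 normalized counts in cKO replicates 1 to 3 and 769, 784 and 796 in WT replicates 1 to 3. Rif1, which shields broken ends from resection, measured 585, 642 and 621 in cKO and 680, 842 and 782 in WT. The groups did not overlap for either gene, and their unadjusted limma p-values were 0.0245 and 0.0424 (adjusted p = 0.915 for both). Both genes are named because their p-values were among the smallest of the list. Of the 34 genes, 4 were lower and 1 was higher in cKO without overlap, beside 5.28% and 6.28% of all genes tested.

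Of 25 genes for signals that direct isotype choice, 0 were called in either direction by limma, and the median log2 fold change was 0.14. Batf, a transcription factor needed for switching, measured 171, 203 and 298 normalized counts in cKO replicates 1 to 3 and 128, 126 and 155 in WT replicates 1 to 3. Tgfbr1, a receptor chain for TGF-β, measured 561, 558 and 462 in cKO and 621, 775 and 709 in WT. Runx3, a factor downstream of TGF-β in switching to Igha, measured 187, 378 and 325 in cKO and 143, 184 and 208 in WT. The groups did not overlap for Batf and Tgfbr1 and overlapped for Runx3. Their unadjusted limma p-values, the smallest of the list, were 0.0162, 0.0205 and 0.0339 (adjusted p = 0.915 for each). Of the 25 genes, 1 was higher and 1 lower in cKO without overlap, beside 6.28% and 5.28% of all genes tested.

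Among 15 genes of heavy chain RNA processing and receptor assembly, limma called 0 in either direction and the median log2 fold change was -0.034. Fcmr, the receptor for IgM, measured 1617, 2111 and 1379 normalized counts in cKO replicates 1 to 3 and 1046, 1263 and 1365 in WT replicates 1 to 3, without overlap. The unadjusted limma p of Fcmr, the smallest of the list, was 0.0335 (adjusted p = 0.915). Of the 15 genes, 1 was higher and 0 were lower in cKO without overlap, beside 6.28% and 5.28% of all genes tested. Hnrnpll, a splicing regulator of plasma cells, was near the detection limit at 4.88, 15.2 and 8.17 in cKO and 6.57, 1.06 and 1.71 in WT. Ell2, an elongation factor that promotes the secreted form of heavy chain RNA in plasma cells, measured 394, 495 and 464 in cKO and 467, 610 and 673 in WT. The groups overlapped for Hnrnpll and Ell2.

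Markers of the sorted cells and of other cells were read from 5 lists, in each of which limma called 0 genes. A sum of 8 germinal center B markers, Bcl6 and S1pr2 among them, was 13450, 8243 and 9925 normalized counts in cKO replicates 1 to 3 and 15069, 14403 and 12987 in WT replicates 1 to 3. All 8 had log2 fold changes below 0 (median -0.41), beside 50.2% of all genes tested, but Fas (-0.057) and Nuggc (-0.029) differed little. Among the 8 were Mybl1 at 1245 ± 176 in cKO and 1729 ± 318 in WT, and Rgs13 at 1089 ± 113 in cKO and 1622 ± 523 in WT. With Ighd among them, 7 of 7 naive or memory B markers were above 0 (median 0.90), among them Klf2 (381 ± 233 in cKO and 162 ± 99.7 in WT), Fcer2a, the low-affinity IgE receptor CD23 (1495, 2856 and 2443 in cKO and 988, 1572 and 2062 in WT), and Gpr183 (67.8, 357 and 165 in cKO and 44.5, 42.6 and 255 in WT). A sum of 7 macrophage markers was 292 to 448 normalized counts in cKO and 108 to 296 in WT, with C1qb and C1qc at 0 in some library and all 7 log2 fold changes above 0 (median 0.89). Its smallest p-values were those of C1qa (12.5, 24.7 and 4.09 in cKO and 7.08, 3.19 and 0.854 in WT), Lyz2 (155, 169 and 194 in cKO and 189, 88.4 and 27.3 in WT) and Csf1r (56.4, 89.2 and 18.4 in cKO and 33.9, 31.9 and 10.3 in WT). Of 7 T cell markers 4 were above 0 (median 0.40), and Cd3d, Cd3g and Cd8a were at 0 in some library. Cd3e measured 27.1, 140 and 6.13 in cKO and 20.7, 12.8 and 5.98 in WT, and Trac and Cd4 were likewise highest in cKO replicate 2 (180 for Trac and 148 for Cd4). Of 8 plasma cell markers 5 were above 0 (median 0.099), with Prdm1 at 41.8, 64.5 and 69.4 in cKO and 102, 58.6 and 107 in WT, Sdc1 at 53.1, 152 and 65.4 in cKO and 83.9, 33.0 and 61.5 in WT, and Tnfrsf17 at 10.8, 75.9 and 2.04 in cKO and 16.2, 1.06 and 6.83 in WT. The part of these cells in the Ighe values was not tested.

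The genes most like a constant gene over the 6 libraries were found by Pearson's r of log2 values among 9813 genes, as a description of these libraries. For Ighe they were Map9, a microtubule-associated protein (r = 0.982), Slco4a1, an organic anion transporter (0.974), and Hint1, a nucleotide hydrolase (0.972). Map9 measured 8.13, 9.49 and 8.17 normalized counts in cKO replicates 1 to 3 and 23.8, 14.9 and 24.8 in WT replicates 1 to 3, with WT replicate 2 the lowest WT library as for Ighe. For Ighm they were Zfp202 (0.973), Hsp90b1, a chaperone of the endoplasmic reticulum (0.962), and Ptcd1 (0.956). For Ighg1 they were Vps51 (0.991), Galns (0.983) and Kat8 (0.965). With 6 libraries, 30 genes had an r above 0.9 with Ighe, 22 with Ighm and 53 with Ighg1.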

How the data were processed

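RNA of sorted cells was sequenced in 6 libraries, grouped by their titles. Per the submitters' processing notes, the build was mm10 and the tools included HTSeq, DESeq2, SAMtools, TopHat2 and HISAT2, with neither roles nor order. The library columns of the authors' table hold a signal, reads divided by 1 size factor per library, as does its deposited mean column. The authors' log2 fold change, test score, p-value and adjusted p-value are quoted only as deposited. Every value was a whole multiple of its column's smallest (100%, tolerance 0.01 read), so reads were recovered; 1 read is worth 0.506 to 2.04 normalized counts.

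Because the table holds no raw counts, limma 3.58.1 (R 4.3.3) with a mean-variance trend was fitted to log2(value + 1), which understates changes of low genes, over 14678 genes with a mean of at least 1 and genotype alone, with Benjamini-Hochberg adjusted p under 0.05. edgeR 4.0.16, DESeq2 1.42.0 and other settings were alternatives. The tests were tried on simulated data. The ratios of Ighe to Ighg1, Ighg1 to Ighm and Ighd to Ighm were compared over libraries with exact permutation tests. The other ratios, switched to unswitched among them, were described by values and overlap without a test. Exon lengths, positions and sequences come from GENCODE M21. Named genes are the 8 members, Senp1, the 3 smallest p-values of each list and the 3 genes most like Ighe, Ighm and Ighg1, without Gm or Rik names and antibody segments. Members and lists were chosen with earlier results of these data known. Some listed genes are not reported here, and the values of the naive or memory B list leave 1 out.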

Additional observations from a re-analysis of the deposited data

How the results depend on the processing

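Direction was kept in all 20 alternatives for Ighe, Ighm and Ighd, and in all 10 for the ratio of Ighe to Ighg1 (-1.78 to -1.31). The other log2 fold changes turned positive in some. Some settings could not turn a sign. In this balanced design, limma with the replicate block or the replicate 1 term returns the main estimate. Gene length likewise cancels from the group difference of a ratio of 2 genes. In replicates 2 and 3 alone, Ighg3 was 0.85, Ighg1 0.034, Ighg2b 0.35 and Ighg2c 0.17. On recovered reads, edgeR gave Ighg1 0.0055, Ighg2b 0.12 and Igha 0.52, and DESeq2 gave Ighg2b 0.10 and Igha 0.51. With the replicate 1 term added after the data were seen, edgeR gave Ighg1 0.0070, Ighg2b 0.29 and Igha 0.49, and DESeq2 Ighg2b 0.29 and Igha 0.48. The cause was not tested. With single libraries left out, the log2 fold change ranged from -0.93 to 0.57 for Ighg3, -0.089 to 0.073 for Ighg1, -0.87 to 0.57 for Ighg2b, -3.09 to 0.33 for Ighg2c and -1.07 to 0.85 for Igha. The log2 difference of the Ighd to Ighm ratio ranged from -0.35 to 1.53, and was -0.075 in replicates 2 and 3 alone. That of switched to unswitched was -1.35 there.

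The number of all genes called was 0 by limma over all 6 libraries. It was 1 with the replicate block, 3 with a term for replicate 1, 23 by DESeq2, and 4 by edgeR and 74 by DESeq2 with that term. The number of constant genes called was 0 except by DESeq2 with the term, which called 1 (Ighe). The correlation of deviations between same-numbered libraries was 0.493, 0.0545 and 0.201, so the numbers were not taken to pair them, and cKO replicate 2 correlated best with WT replicate 3 (0.170). With the replicate block, the limma adjusted p was 0.255 for Ighe and 0.257 for Ighd. The block gave the same difference for each ratio. The scaling moved the median of all genes to -0.078 with library totals and -0.017 with TMM factors. Depth limits Ighe most, at 14 and 15 reads in cKO replicates 2 and 3.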
